A study of Homo sapiens with 20 samples.

Results

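The aldo-keto reductases described here are 7 genes, AKR1A1, AKR1B1, AKR1B10, AKR1C1, AKR1C2, AKR1C3 and AKR7A2, taken by symbol from a table of 21201 gene symbols. They were picked for their levels and for their difference with treatment in these same libraries, so their values are a description and carry no test. The libraries hold messenger RNA of 5 human tumor lines, of which COLO320DM (colon), ABC-1 (lung), UO-31 (kidney) and OVCAR-4 (ovary) are sensitive to tankyrase inhibition (TNKSi-sensitive) and RKO (colon) is the insensitive control. Each line was grown for 24 h with 1 µM G007-LK, a tankyrase inhibitor, or with 0.01% DMSO, the vehicle that served as the control. Each of the 10 groups has 2 libraries, numbered 1 and 2 in their titles, which makes 20 libraries. Each line comes from 1 tumor, so a value belongs to that line and not to a tissue. The authors grew ABC-1 and RKO in Eagle's minimum essential medium, and the other lines in RPMI medium. Between lines grown in different media, line and medium cannot be told apart.

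The table gives RPKM, reads per kilobase of gene model and per 1000000 mapped reads. The spacing of its smallest values gives whole reads for 12293 of 12709 genes detected in every library, within 0.02 of a read, so reads stand beside RPKM below. In units of 1000000 reads, each library has 16.7 to 20.2 on genes, but the total that the RPKM was divided by is 11.9 to 13.4 in OVCAR-4 and 19.5 to 29.3 in the other lines. The ratio of gene reads to that total is 1.42 to 1.56 in OVCAR-4 and 0.607 to 1.03 elsewhere. RPKM in OVCAR-4 is therefore on a larger scale than in the other lines. Comparisons of member levels between lines are given a second time on a gene-read scale, as reads per kilobase per 1000000 gene reads. Of the colon markers, COLO320DM had CDX2 at 747 RPKM, KRT20 at 3.57, EPCAM at 1.17, VIL1 at 0.036 and LGALS4 at 0.029, and RKO had CDX2 at 7.155, EPCAM at 2.72 and VIL1, KRT20 and LGALS4 all under 0.03. Of the kidney markers, UO-31 had PAX8 at 65.0 RPKM, PAX2 at 6.51, CDH16 at 1.01 and LHX1 at 0.882. Of the ovarian markers, OVCAR-4 had PAX8 at 81.3 RPKM, MUC16 at 7.92, MSLN at 4.70 and WT1 at 0.0953. PAX8 is on both the kidney and the ovarian list. Some markers also stood high outside their line, with MSLN at 133.6 RPKM in ABC-1 and EPCAM at 582.9 in ABC-1 and 461.1 in OVCAR-4. Such markers do not single out a line, and their levels are given by RPKM only. The lung markers NAPSA, SFTPB and SFTPC were all at or under 0.185 RPKM in ABC-1. NKX2-1, also on the lung list, was not found under that symbol, so its level is not known here. The 8 blood and endothelial markers summed to at most 8.11 RPKM in any library, with HBB at 0 throughout.

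Aldo-keto reductases reduce carbonyl groups on sugars, steroids, prostaglandins and lipid aldehydes, with NADPH as the usual cofactor. The AKR1C enzymes are the human hydroxysteroid dehydrogenases of the family: AKR1C1 inactivates progesterone, AKR1C2 inactivates dihydrotestosterone, and AKR1C3 makes testosterone from androstenedione and also makes prostaglandin F2. AKR1B1 is aldose reductase, the first enzyme of the polyol pathway from glucose to sorbitol, and AKR1B10 is its relative that handles retinal and lipid aldehydes. AKR1A1 is aldehyde reductase, a broadly expressed enzyme, and AKR7A2 reduces succinic semialdehyde and aflatoxin dialdehyde. Several AKR1 genes are textbook targets of NRF2, the transcription factor of the response to oxidants and electrophiles, which KEAP1 holds down.

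AKR1C1, AKR1C2 and AKR1C3 lie next to each other on chromosome 10 (GRCh37, the build of the gene set used, which is hg19). AKR1C1 spans chr10:5005445-5025475 on the plus strand, AKR1C2 spans chr10:5029967-5060223 on the minus strand, and AKR1C3 spans chr10:5077546-5149878 on the plus strand. Each of their MANE transcripts has 9 exons and 972 coding bases for 323 amino acids. AKR1C1 and AKR1C2 differ at 19 coding bases (98.05% identity), while AKR1C3 differs from AKR1C1 at 83 (91.46%) and from AKR1C2 at 87 (91.05%). The first 60 coding bases, all in coding exon 1, are shown because they illustrate how little separates the reads of these genes. Capitals mark the 8 positions at which the genes are not all alike, and AKR1C1 and AKR1C2 share all but one of them. They are at chr10:5005637-5005696 (plus), chr10:5045968-5046027 (minus) and chr10:5136637-5136696 (plus).
AKR1C1: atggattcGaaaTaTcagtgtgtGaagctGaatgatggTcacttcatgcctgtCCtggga
AKR1C2: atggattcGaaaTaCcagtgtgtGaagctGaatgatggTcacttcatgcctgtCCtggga
AKR1C3: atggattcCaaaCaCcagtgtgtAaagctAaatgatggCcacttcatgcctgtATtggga

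The aligner allowed 2 mismatches. With that allowance 74.9% of the 50-base windows of the AKR1C2 transcript and 36.5% of those of AKR1C1 are found in the other of the pair, and 31.9% of the windows of AKR1C3 are found in another AKR1C gene. For windows of 100 bases the shares are 56.9%, 27.5% and 16%. The rule for reads with several matches is not given in the sources used, so the split of reads between AKR1C1 and AKR1C2 is uncertain, and that of AKR1C3 less so. The model lengths recovered from the RPKM steps were 1384 bases for AKR1C1, 3621 for AKR1C2 and 1251 for AKR1C3, so 1 read adds least RPKM to AKR1C2.

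The 250 bases before the RefSeq start of each gene are shown because the AKR1C genes were higher together in treated ABC-1 cells. AKR1C3 has 2 RefSeq promoters, and only the one at the start of its MANE transcript is shown. The motif positions given below cover the windows shown and not the other promoter. They were located in GRCh37 by exact match at chr10:5005357-5005606 (plus), chr10:5046050-5046299 (minus) and chr10:5136356-5136605 (plus). Capitals mark the longest run that all of them share.
AKR1C1: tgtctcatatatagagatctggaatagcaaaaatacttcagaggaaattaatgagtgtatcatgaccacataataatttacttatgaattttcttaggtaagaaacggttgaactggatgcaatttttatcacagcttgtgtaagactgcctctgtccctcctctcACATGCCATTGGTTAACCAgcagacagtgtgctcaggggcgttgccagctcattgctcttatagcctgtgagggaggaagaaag
AKR1C2: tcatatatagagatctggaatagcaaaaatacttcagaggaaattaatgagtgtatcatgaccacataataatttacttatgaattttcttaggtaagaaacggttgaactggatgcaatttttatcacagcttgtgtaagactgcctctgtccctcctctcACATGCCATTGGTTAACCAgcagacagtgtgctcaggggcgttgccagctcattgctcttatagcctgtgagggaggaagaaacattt
AKR1C3: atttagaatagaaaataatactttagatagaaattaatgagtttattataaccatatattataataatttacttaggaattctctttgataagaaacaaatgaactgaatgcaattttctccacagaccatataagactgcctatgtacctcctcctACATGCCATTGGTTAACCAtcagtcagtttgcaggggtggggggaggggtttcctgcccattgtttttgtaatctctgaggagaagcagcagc

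The shared run is 19 bases long and begins 84, 88 and 93 bases before the start of AKR1C1, AKR1C2 and AKR1C3. Of 35116 RefSeq promoters searched over the same 250 bases on both strands, 3 hold it. It contains the letters ATTGG, a reversed CCAAT box, which 32% of promoters hold on either strand. The AKR1C1 and AKR1C2 promoters match at 245 of 246 aligned bases. Of the other motifs searched on both strands, CTTTGAT (the TCF/LEF letters, in 2.26% of all promoters) was found once, in AKR1C3, from 167 bases before the start. TGACNNNGC (antioxidant response element core, 10.9%), TGACTCA (AP-1, 4.2%), GGAATG (TEAD, 11.9%) and TGTTTAC (forkhead, 2.98%) had no match in these windows.

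AKR1C3 mRNA was higher with G007-LK in the lines that express it. In ABC-1 it was at 3.23 and 3.15 RPKM (101 and 92 reads) in DMSO and at 32.3 and 31.8 RPKM (1046 and 1106 reads) with G007-LK. In UO-31 it was at 9.35 and 9.41 RPKM (254 and 258 reads) in DMSO and at 31.4 and 28.6 RPKM (766 and 858 reads) with G007-LK. In OVCAR-4 it was at 4.89 and 5.78 RPKM (77 and 86 reads) in DMSO and at 12.1 and 10.8 RPKM (203 and 171 reads) with G007-LK. The groups did not overlap in any of these lines, and of all genes tested 24.9% in ABC-1, 23.1% in UO-31 and 21.2% in OVCAR-4 had both treated libraries above both controls. The ratio of means was 10.1 in ABC-1, 3.19 in UO-31 and 2.15 in OVCAR-4. On the scale of log2(RPKM + 0.5), the difference of G007-LK minus DMSO was 3.14 ± 0.11 (SE, 2 libraries a group) in ABC-1, 1.62 ± 0.19 in UO-31 and 1.04 ± 0.09 in OVCAR-4. Rescaled to gene reads these differences were 3.31, 1.61 and 1.14. COLO320DM and RKO had at most 1 AKR1C3 read per library, with or without G007-LK, so no difference was detectable there at this depth. In a bulk sample, more cells with the mRNA and more mRNA per cell cannot be told apart.

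**Figure D1:**
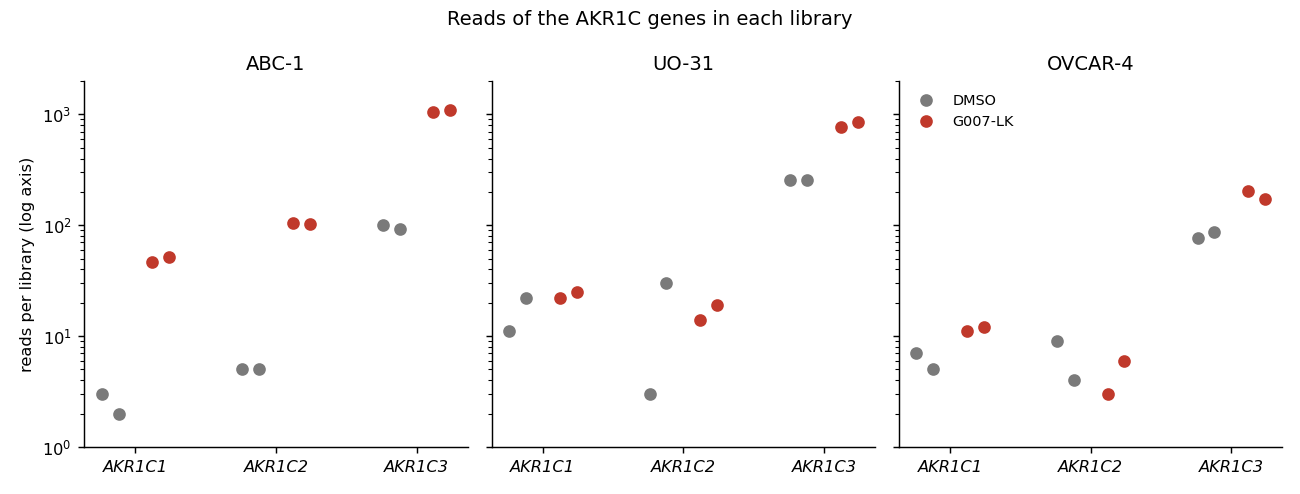
Reads of AKR1C1, AKR1C2 and AKR1C3 (x axis) in each library of ABC-1, UO-31 and OVCAR-4, on a log axis, with DMSO in grey and G007-LK in red (1 point per library). AKR1C3 lies higher with G007-LK in all of these lines, and in ABC-1 AKR1C1 and AKR1C2 lie at 2 to 5 reads in DMSO and at 47 to 104 with G007-LK.

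AKR1C1 and AKR1C2 were rare, and neither reached the mean of 1 RPKM needed for the test in any line. In ABC-1 AKR1C1 had 3 and 2 reads in DMSO and 47 and 52 with G007-LK, or 0.0743 ± 0.0176 RPKM and 1.33 ± 0.0306 RPKM (mean ± SD, n = 2). AKR1C2 had 5 and 5 reads in DMSO and 104 and 103 with G007-LK in that line, or 0.0571 ± 0.00273 RPKM and 1.07 ± 0.0589 RPKM. Taking counting error alone, the exact 95% Poisson intervals of AKR1C1 were 0.619 to 8.77 and 0.242 to 7.22 reads in DMSO and 34.5 to 62.5 and 38.8 to 68.2 reads with G007-LK, and those of AKR1C2 were 1.62 to 11.7 in both DMSO libraries and 85.0 to 126 and 84.1 to 124.9 with G007-LK. In OVCAR-4 AKR1C1 had 7 and 5 reads in DMSO and 11 and 12 with G007-LK, and AKR1C2 had 9 and 4 against 3 and 6. The AKR1C1 libraries of OVCAR-4 were apart by treatment but their counting intervals overlapped, and AKR1C2 overlapped outright. In UO-31 AKR1C1 had 11 and 22 reads in DMSO and 22 and 25 with G007-LK, and AKR1C2 had 3 and 30 against 14 and 19. RKO had no read of either gene, and COLO320DM had at most 1 of AKR1C1 and 2 of AKR1C2 per library.

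AKR1C3 made up 89.08% to 96.87% of the summed RPKM of the AKR1C genes in the 12 libraries of ABC-1, UO-31 and OVCAR-4. The sum, which does not depend on how RPKM was split by gene except through model length, was 3.37 and 3.27 RPKM in DMSO and 34.7 and 34.2 with G007-LK in ABC-1. It was 9.76 and 10.5 against 32.4 and 29.6 in UO-31, and 5.49 and 6.17 against 12.8 and 11.7 in OVCAR-4. The log2 difference of the sum was 3.19 in ABC-1, 1.56 in UO-31 and 1.01 in OVCAR-4. In ABC-1, AKR1C1 stood at 2.68% and 1.97% of AKR1C3 by RPKM in DMSO and at 4.06% and 4.25% with G007-LK, and in UO-31 at 3.91% and 7.71% against 2.60% and 2.63%.

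AKR1C4, the liver member of the cluster, was not detected in any library. Of the 10 neighbours of the AKR1C genes on chromosome 10 that were listed, 4 or 5 were tested in each line. In ABC-1 NET1 rose (log2 difference 0.52 ± 0.10, limma adjusted p = 1.61e-06), and 3 neighbours fell, among them FAM208B (-0.44 ± 0.09, adjusted p = 4.48e-06) and ASB13 (-0.43 ± 0.10, adjusted p = 9.66e-05), where 41.2% of all genes tested fell. After rescaling to gene reads 2 neighbours fell in ABC-1, and the call of FAM208B there was lost in 1 fit over 20 libraries. In OVCAR-4 3 neighbours fell, where 39% of all genes tested did, led by FAM208B (-0.64 ± 0.05, adjusted p = 1.82e-06), and 2 of the 3 also fell after rescaling to gene reads. In UO-31 no neighbour passed. ASB13 alone fell in COLO320DM and NET1 alone in RKO, where 11.6% and 2.75% of all genes tested fell. The call in COLO320DM was lost without either G007-LK library and with a replicate block. That in RKO was lost when any of its libraries was left out and after rescaling to gene reads.

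**Figure D2:**
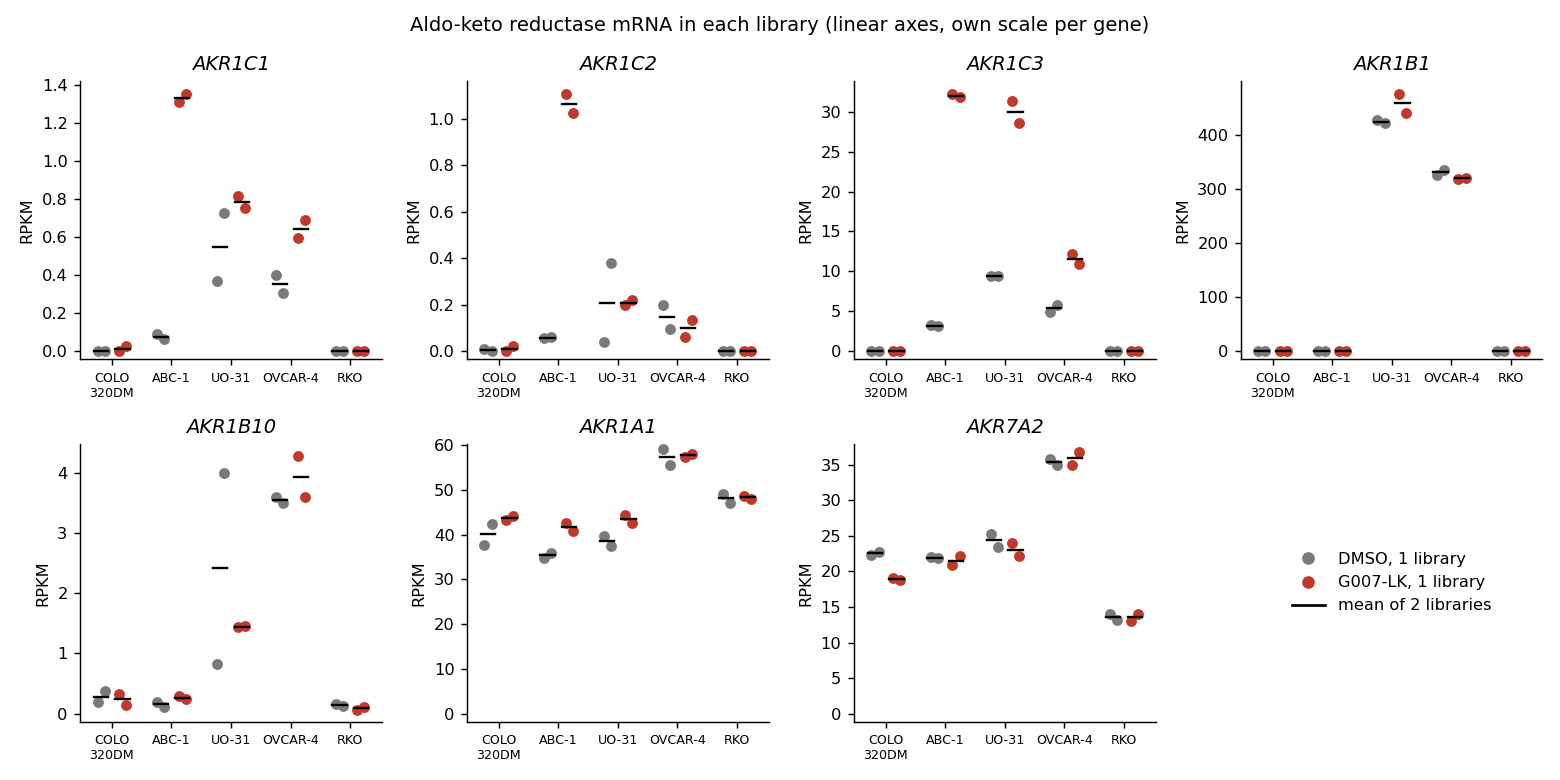
RPKM (y axis, linear, its own scale for each gene) of the 7 aldo-keto reductases in each library of the 5 lines, with DMSO in grey, G007-LK in red and the mean of 2 libraries as a line. AKR1C3 differs by treatment in ABC-1, UO-31 and OVCAR-4, AKR1B1 differs by line from 0 to 475.9 RPKM, and AKR1A1 and AKR7A2 are present in all lines.

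AKR1B1 was the most abundant member and the one that differed most between lines. It spans chr7:134127108-134144036 on the minus strand, and AKR1B10 spans chr7:134212319-134226164 on the plus strand. UO-31 had 426.9 and 421.4 RPKM in DMSO (13123 and 13070 reads) and 475.9 and 441.3 RPKM with G007-LK (13158 and 14987 reads). OVCAR-4 had 325.2 and 335.5 RPKM in DMSO and 318.8 and 320.8 RPKM with G007-LK. ABC-1 had 0.423 to 0.508 RPKM (14 to 18 reads), COLO320DM had 1 read in each library, and RKO had none. Against the 3 reads that a count of 0 allows per library in RKO, AKR1B1 in DMSO was at least 5487-fold higher in UO-31 and at least 4274-fold higher in OVCAR-4 by RPKM, or at least 3632-fold and 1679-fold on the gene-read scale. With G007-LK the log2 difference was 0.11 ± 0.09 (SE) in UO-31 and -0.05 ± 0.03 in OVCAR-4. By RPKM both treated libraries were above both controls in UO-31 and below them in OVCAR-4, as they were for 23.1% and 54.6% of the genes tested there. After rescaling to gene reads the groups overlapped in UO-31. In OVCAR-4 the treated libraries then lay above the controls, with a log2 difference of 0.05, so no direction is given for OVCAR-4.

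AKR1B10 was low. Its coding sequence matches that of AKR1B1 at 75.29% of 951 bases, and no 50-base window of either transcript is found in the other with 2 mismatches. OVCAR-4 had 3.61 and 3.50 RPKM in DMSO (73 and 67 reads) and 4.27 and 3.60 RPKM with G007-LK (92 and 73 reads). UO-31 had 0.830 and 4.00 RPKM in DMSO (29 and 141 reads) and 1.43 and 1.45 RPKM with G007-LK (45 and 56 reads). The DMSO libraries of UO-31 thus bracketed the treated ones. Without DMSO replicate 2 of UO-31 the log2 difference of AKR1B10 turned from -0.33 to 0.55. The same library had 30 reads of AKR1C2 against 3 in the other DMSO library and 22 of AKR1C1 against 11, while AKR1C3 had 258 and 254. The cause was not tested. In COLO320DM, ABC-1 and RKO AKR1B10 had 3 to 15 reads per library.

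AKR1A1 and AKR7A2 were present in every line. Between the highest and lowest line, the DMSO mean of AKR1A1 differed 1.62-fold by RPKM and 2.10-fold on the gene-read scale. That of AKR7A2 differed 2.61-fold and 1.43-fold. AKR1A1 (chr1:46016215-46035721, plus strand) ranged from 34.9 to 59.1 RPKM over the 20 libraries, and AKR7A2 (chr1:19630459-19638638, minus strand) from 13.1 to 36.8 RPKM. In ABC-1 AKR1A1 was at 34.9 and 35.9 RPKM in DMSO and 42.6 and 40.8 with G007-LK, a ratio of means of 1.18 (log2 difference 0.23 ± 0.08), or 0.42 after rescaling to gene reads. Its treated libraries also lay above the DMSO libraries in COLO320DM (37.8 and 42.5 against 43.2 and 44.2 RPKM) and UO-31 (39.6 and 37.6 against 44.4 and 42.6 RPKM), with log2 differences of 0.12 ± 0.10 and 0.17 ± 0.15, and they overlapped in OVCAR-4 and RKO. In COLO320DM 26.3% of all genes tested lay above the controls in this way and 31.7% lay below. AKR7A2 was lower with G007-LK in COLO320DM, at 22.4 and 22.8 RPKM against 19.1 and 18.9 RPKM, a ratio of means of 0.840 (log2 difference -0.25 ± 0.11). The treated and DMSO libraries of AKR7A2 overlapped by RPKM in the other lines.

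**Figure D3:**
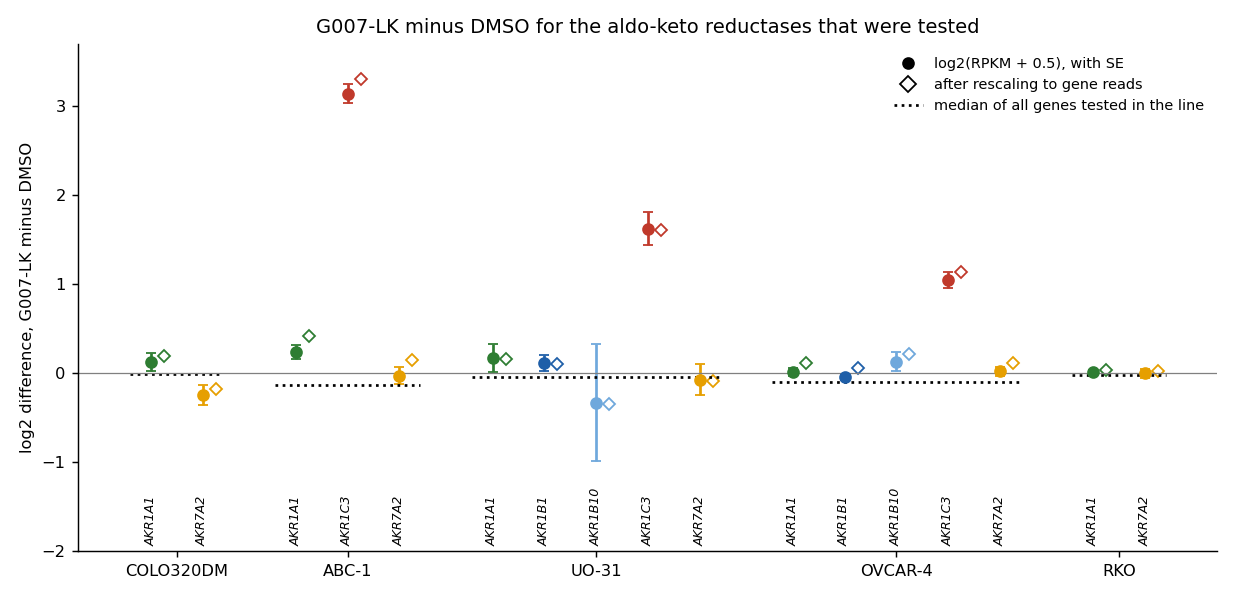
Log2 difference of G007-LK minus DMSO for each aldo-keto reductase tested in each line, on the log2(RPKM + 0.5) scale with its SE (circles) and after rescaling to gene reads (diamonds), with the median of all genes tested in the line as a dotted line. AKR1C3 lies at 3.14 in ABC-1, 1.62 in UO-31 and 1.04 in OVCAR-4. The other circles lie between -0.33 and 0.23.

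The test by limma, at an adjusted p under 0.05, took the genes of a line that averaged 1 RPKM or more over its 4 libraries. In ABC-1 3 members were tested and 2 were called higher, AKR1C3 and AKR1A1, where 57.9% of the 10910 genes tested were called in either direction and 16.6% were called higher. In UO-31 5 were tested and 1, AKR1C3, was called higher, where 13.4% of 11851 genes were called and 4.79% were called higher. In OVCAR-4 5 were tested and 1, AKR1C3, was called higher, where 51.5% of 12425 genes were called and 12.6% were called higher. In COLO320DM (19.3% of 11279 genes called) and RKO (4.11% of 10518) AKR1A1 and AKR7A2 were tested, and neither was past the threshold. The calls above held after rescaling to gene reads and by median ratio scaling, and rescaling to gene reads added AKR1A1 in COLO320DM and AKR7A2 in OVCAR-4, both higher, where 23.7% and 22.9% of all genes tested were called higher. Median ratio scaling added AKR7A2, lower in COLO320DM (21.8% of genes called lower) and higher in OVCAR-4 (23% called higher). Nothing is read from these calls or counts of members, and they are no test of the members, since the genes were picked on this contrast. The median log2 difference of the tested members was 0.23 in ABC-1, 0.11 in UO-31 and 0.02 in OVCAR-4. Over all genes tested it was -0.14, -0.04 and -0.11 by RPKM, and 0.03, -0.05 and -0.01 after rescaling to gene reads. Nothing is read from the members' medians either, for the same reason. Over all genes, 1816 rose and 4498 fell in ABC-1, but 3696 rose and 3285 fell after rescaling to gene reads. The same counts were 1564 and 4841 against 2848 and 3093 in OVCAR-4, 868 and 1310 against 2668 and 1746 in COLO320DM, and 143 and 289 against 152 and 109 in RKO. In UO-31, where 568 rose and 1023 fell, the count of calls ran from 53 to 7475 as each library was left out.

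The order of the lines in DMSO depended on the scale. By RPKM AKR1A1 was highest in OVCAR-4 (57.3 ± 2.58, SD, n = 2), followed by RKO (48.1 ± 1.47), COLO320DM (40.1 ± 3.30), UO-31 (38.6 ± 1.45) and ABC-1 (35.4 ± 0.718), and only COLO320DM and UO-31 overlapped as neighbours. On the gene-read scale OVCAR-4 was lowest (37.1 ± 2.14) and RKO highest (78.1 ± 2.80). AKR7A2 was likewise highest in OVCAR-4 by RPKM (35.4 ± 0.581) and lowest in RKO (13.6 ± 0.646), a ratio of 2.61, but ran from 31.6 ± 2.55 in COLO320DM to 22.0 ± 1.17 in RKO on the gene-read scale, a ratio of 1.43, with OVCAR-4 overlapping RKO. AKR1C3 was highest in UO-31 on both scales (9.38 ± 0.0433 RPKM and 10.2 ± 0.298 per kilobase per 1000000 gene reads). OVCAR-4 stood above ABC-1 by RPKM (5.33 ± 0.624 against 3.19 ± 0.0583), and below it on the gene-read scale (3.45 ± 0.360 against 3.96 ± 0.284). AKR1B1 kept the order of UO-31, OVCAR-4, ABC-1, COLO320DM and RKO on both scales. AKR1B10 in DMSO was highest in OVCAR-4 and UO-31, which overlapped on both scales through the spread of UO-31.

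**Figure D4:**
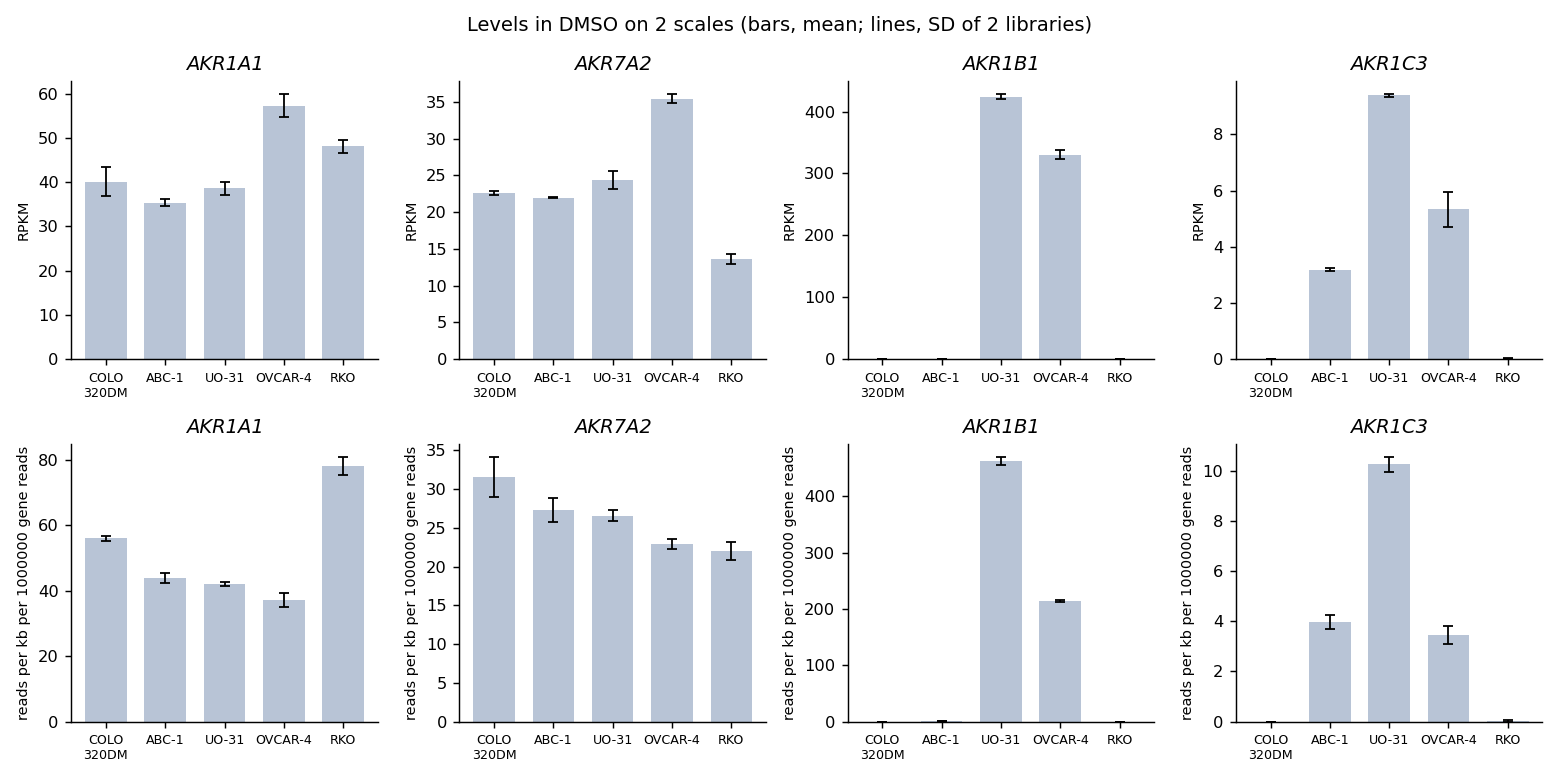
Levels in DMSO of AKR1A1, AKR7A2, AKR1B1 and AKR1C3 in the 5 lines, as RPKM (top) and as reads per kilobase per 1000000 gene reads (bottom). Bars are means and lines are the SD of 2 libraries; OVCAR-4 moves from highest to lowest for AKR1A1 (57.3 RPKM, 37.1 on the gene-read scale), while AKR1B1 and AKR1C3 stay highest in UO-31.

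Of 11 symbols listed for other aldo-keto reductase superfamily genes, 10 are in the table. The highest was KCNAB2, a β subunit of potassium channels, which reached 18.7 RPKM in RKO. AKR7A3, the close relative of AKR7A2, reached 3.87 RPKM in RKO, AKR1E2 reached 1.78 in OVCAR-4, and AKR1B15 and AKR1D1 stayed under 0.3. In 8 tests of these genes over the lines limma gave 0 calls, with 1 at an unadjusted p under 0.05. That was KCNAB2 in UO-31 (5.00 ± 0.141 against 7.65 ± 0.791 RPKM, log2 difference 0.56, limma adjusted p = 0.066), which was called after median ratio scaling or rescaling to gene reads.

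The genes whose profile over the 20 libraries was most like that of each member were found by Pearson's r of log2(RPKM + 0.5) over 14199 genes. The libraries come from 5 lines and share them, so r mostly follows the lines. It was taken by RPKM only, on which OVCAR-4 has a larger scale, and was not repeated on the gene-read scale. The genes named may therefore differ on that scale. For AKR1C3 these were SLC9A3R1 (r = 0.9865), PIK3IP1 (0.9862) and MAN2B2 (0.9649). For AKR1B1 they were NNMT (0.999), BASP1 (0.9984) and ME1 (0.9975). For AKR7A2 they were AKAP8L (0.9883), HIBCH (0.9875) and UROS (0.9834), for AKR1B10 CYGB (0.9606), CCDC8 (0.9596) and APOL1 (0.959), and for AKR1A1 they included RAB40B (0.9593) and WSB1 (0.951). For AKR1C1 AKR1C3 came first (0.9412), followed by SLC9A3R1 (0.9309) and PIK3IP1 (0.9115), and for AKR1C2 FAM26E (0.8435), ZNF436 (0.843) and RNF170 (0.8228). Among the members r was 0.9109 between AKR1B1 and AKR1B10 and 0.009493 between AKR1A1 and AKR1C3.

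Some NRF2 targets other than the AKR genes rose in every line. The list of 28 genes was written with results of these libraries known, so its direction is no independent evidence. In UO-31 11 of 25 tested rose and none fell at an adjusted p under 0.05 by limma, with 13 up and 1 down after rescaling to gene reads. In COLO320DM 8 of 22 rose and 1 fell, in ABC-1 11 of 24 rose and 7 fell, in OVCAR-4 10 of 25 rose and 7 fell, and in RKO 3 of 22 rose and none fell. After rescaling these counts were 13 and 1, 14 and 2, 13 and 4, and 4 and 0. Over all genes tested, the shares that rose and fell were 4.79% and 8.63% (UO-31), 7.7% and 11.6% (COLO320DM), 16.6% and 41.2% (ABC-1), 12.6% and 39% (OVCAR-4) and 1.36% and 2.75% (RKO), and after rescaling to gene reads 11.5% and 19.7% (UO-31), 23.7% and 15.5% (COLO320DM), 33.9% and 30.1% (ABC-1), 22.9% and 24.9% (OVCAR-4) and 1.45% and 1.04% (RKO). The counts of the enzyme lists that follow stand beside the same shares. The median log2 difference of the list was 0.24 in UO-31, 0.19 in COLO320DM, 0.06 in ABC-1, 0.11 in OVCAR-4 and 0.04 in RKO, against -0.04, -0.01, -0.14, -0.11 and -0.02 over all genes. With a library left out, 5 to 17 of the list rose and 0 to 8 fell in UO-31, 7 to 11 rose and 0 to 1 fell in COLO320DM, and 10 to 11 rose and 2 to 8 fell in ABC-1. In OVCAR-4 9 to 11 rose and 4 to 6 fell, and in RKO 2 to 3 rose and none fell.

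HMOX1 (heme oxygenase), SQSTM1 (the autophagy receptor p62) and FTL (ferritin light chain) rose in all 5 lines. In ABC-1 HMOX1 was at 6.34 ± 0.644 RPKM in DMSO and 24.5 ± 1.16 with G007-LK (SD, n = 2; log2 difference 1.87 ± 0.10 SE, limma adjusted p = 1.31e-71). The UO-31 values were 62.6 ± 0.766 RPKM in DMSO and 190.4 ± 11.4 with G007-LK (log2 difference 1.60 ± 0.13, limma adjusted p = 4.2e-33). In these lines limma's prior degrees of freedom were infinite, which makes such values far smaller than 4 libraries alone give. HMOX1 went from 25.1 ± 2.09 to 41.3 ± 0.122 RPKM in OVCAR-4 (0.71 ± 0.06, adjusted p = 2e-06) and from 23.3 ± 0.00878 to 37.0 ± 0.354 RPKM in RKO (0.66 ± 0.03, adjusted p = 1.1e-05). In RKO, AKR1C3 had at most 1 read per library. A relation of the NRF2 targets to the AKR1C genes was not tested. NQO1, a quinone reductase, rose in all but RKO, from 12.2 ± 0.488 to 24.9 ± 0.465 RPKM in COLO320DM (1.00 ± 0.12, adjusted p = 9.24e-06) and from 110.2 ± 3.69 to 228.7 ± 22.3 RPKM in UO-31 (1.05 ± 0.12, adjusted p = 2.93e-16). In COLO320DM, with next to no AKR1C reads, OSGIN1 rose (1.55 ± 0.13, adjusted p = 1.63e-07) and so did SLC7A11, the cystine transporter (1.12 ± 0.16, adjusted p = 7.59e-05). Other genes of the list fell. By RPKM, at an adjusted p under 0.05 by limma, PRDX1 fell in 3 of the 5 lines, and SRXN1 and GCLM fell in 2 each. None of these rose in any line by RPKM. Falls depended on the scale: after rescaling to gene reads, the genes of the list that fell went from 7 to 2 in ABC-1. In OVCAR-4 they went from 7 to 4. GCLM is a subunit of the enzyme that starts glutathione synthesis (-0.42 ± 0.05 in OVCAR-4, limma adjusted p = 4.18e-05, a call lost in 1 fit over 20 libraries). Without either DMSO library of UO-31, SLC7A11 was not called there, and without DMSO replicate 1 of RKO neither was FTL.

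**Figure D5:**
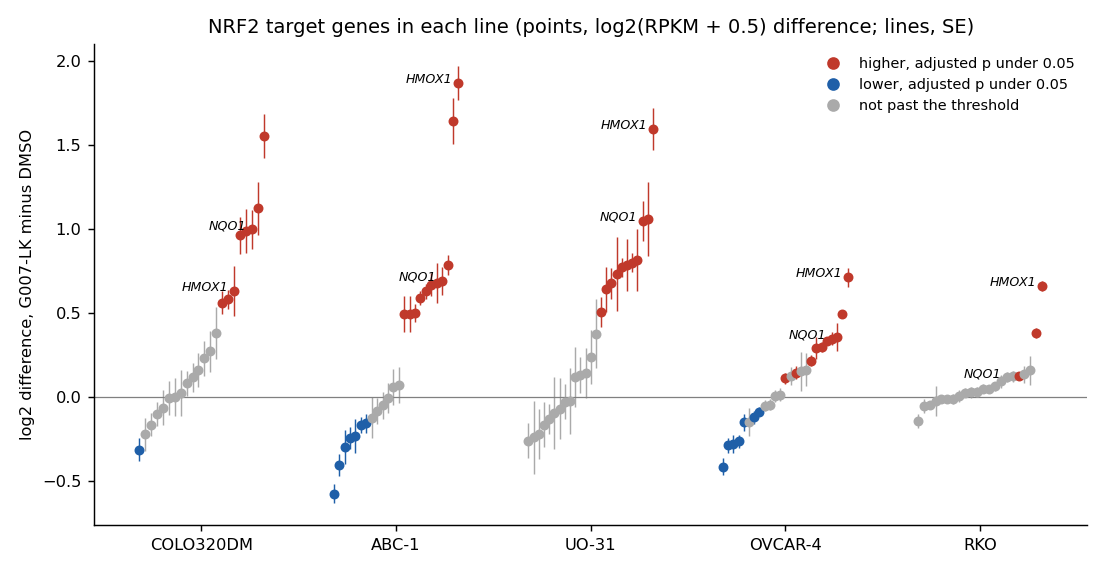
Log2 difference of G007-LK minus DMSO, with its SE, of each NRF2 target gene tested in each line (x axis), on the log2(RPKM + 0.5) scale. Red points rose and blue points fell at an adjusted p under 0.05 (limma), and grey points did not pass; HMOX1 lies highest in ABC-1 (1.87), UO-31 (1.60), OVCAR-4 (0.71) and RKO (0.66).

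Of the NRF2 regulators, NFE2L2 mRNA, which encodes NRF2, fell in ABC-1 (34.1 ± 2.75 to 25.7 ± 1.90 RPKM, log2 difference -0.40 ± 0.08, limma adjusted p = 7.92e-06) and in OVCAR-4 (54.6 ± 1.81 to 44.8 ± 0.504 RPKM, -0.28 ± 0.05, adjusted p = 0.000275). The fall in ABC-1 was not called without G007-LK replicate 2, nor that in OVCAR-4 in 1 fit over 20 libraries. NFE2L2 was not past the threshold in COLO320DM (0.14 ± 0.13), UO-31 (-0.05 ± 0.15) or RKO (-0.02 ± 0.03). KEAP1 mRNA passed in OVCAR-4 alone by RPKM (128.8 ± 3.45 to 115.2 ± 1.81, -0.16 ± 0.04, adjusted p = 0.00467), and this call was lost after rescaling to gene reads (-0.06). In the other lines its log2 difference was 0.13 ± 0.09 (COLO320DM), 0.00 ± 0.08 (ABC-1), 0.02 ± 0.16 (UO-31) and 0.01 ± 0.03 (RKO).

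Other enzymes of steroid and prostaglandin metabolism differed by line. Of 26 listed, 3 of 17 tested rose and 1 fell in UO-31, 3 of 16 rose and 7 fell in ABC-1, none rose and 7 of 17 fell in OVCAR-4, none rose and 3 of 17 fell in COLO320DM, and none rose and 1 of 13 fell in RKO. After rescaling to gene reads the list had 5 genes higher and 2 lower in UO-31, 5 higher and 6 lower in ABC-1, 3 of each in both OVCAR-4 and COLO320DM, and 0 of each in RKO. With a library left out, 0 to 10 rose and 0 to 4 fell in UO-31. PTGES3, a prostaglandin E synthase and HSP90 co-chaperone, fell by RPKM in every line, from -0.66 ± 0.05 in ABC-1 (limma adjusted p = 1.75e-33) to -0.11 ± 0.02 in RKO (adjusted p = 0.0187), and the call in RKO was lost when any of its libraries was left out and after rescaling. The call of PTGES3 was also lost in UO-31 without either DMSO library, and in COLO320DM without a filter on low values, with a replicate block and without G007-LK replicate 2. PTGES, the inducible prostaglandin E synthase, rose in UO-31 (1.01 ± 0.21, adjusted p = 7.49e-05) and fell in ABC-1 (-0.53 ± 0.07, adjusted p = 4.14e-15). The call of PTGES in UO-31 was lost without either DMSO library.

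Other enzymes that handle carbonyls differed by line. Of 27 listed, 1 of 21 tested rose and 9 fell in COLO320DM, 4 of 18 rose and 9 fell in ABC-1, 4 of 21 rose and 1 fell in UO-31, 3 of 21 rose and 8 fell in OVCAR-4, and 1 of 17 rose and none fell in RKO. After rescaling to gene reads the list had 3 genes higher and 9 lower in COLO320DM, 6 higher and 7 lower in ABC-1, 8 higher and 3 lower in UO-31, 4 higher and 3 lower in OVCAR-4, and 1 higher and 0 lower in RKO. With a library left out, 0 to 10 rose and 0 to 9 fell in UO-31. RDH10, a retinol dehydrogenase, fell from 91.7 ± 6.37 to 22.0 ± 1.23 RPKM in ABC-1 (-2.03 ± 0.08, limma adjusted p = 2.31e-144) and also fell in OVCAR-4 (-0.35 ± 0.05, adjusted p = 0.000105). ALDH1A1, a retinal dehydrogenase, fell from 134.7 ± 14.2 to 70.7 ± 2.57 RPKM in COLO320DM (-0.92 ± 0.09, adjusted p = 8.45e-07) and rose from 15.3 ± 0.761 to 28.8 ± 5.59 RPKM in UO-31 (0.88 ± 0.18, adjusted p = 2.94e-05), where the call was lost without either DMSO library. ALDH1B1 fell in COLO320DM (-0.84 ± 0.10, adjusted p = 1.01e-05) and ABC-1 (-1.27 ± 0.12, adjusted p = 9.28e-24) and rose in UO-31 (0.55 ± 0.14, limma adjusted p = 0.00184), where the call was lost without either DMSO library and without a filter on low values. GLO1, the glyoxalase that clears methylglyoxal, fell in ABC-1 (-0.53 ± 0.06, adjusted p = 1.07e-16).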

How the data were processed

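The authors mapped clean reads to the hg19 (GRCh37) reference genes with SOAPaligner/SOAP2, allowing 2 mismatches, and deposited 1 RPKM value per gene and library; the sources used here do not give the aligner's version or its rule for reads with several matches. Poly(A) RNA in fragments of about 200 bp was sequenced on an Illumina HiSeq 2000. The deposited tables of the authors' NOISeq comparisons, with log2 ratios and probabilities, were not used, and NOISeq was replaced by limma. Missing values were taken as 0. The table has 21610 entries, of which 8 lack a symbol and were dropped (0.00134% of RPKM or less in every library), and 371 symbols on several entries were joined.

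Whole reads and model lengths were recovered from the RPKM steps, within 0.000227 of a read for the members. Intervals (exact Poisson, 95%) and the floor of 3 reads cover counting error only, and PCR copies are not independent molecules. log2(RPKM + 0.5) was tested per line, for genes averaging 1 RPKM or more, by limma 3.58.1 (statmod 1.5.0, R 4.3.3; trend, robust), G007-LK minus DMSO, two-sided, at a Benjamini-Hochberg adjusted p of 0.05 within each line. The fit was tested on simulated data. Python 3.11.15, numpy 2.4.6, pandas 2.3.3, scipy 1.17.1 and matplotlib 3.10.9 did the rest. Gene positions are from GENCODE on GRCh37, and promoters from RefSeq (GRCh38.p14), found for 6 of the 7 members.

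Members and lists were chosen with earlier results of these data known. Genes named are all members, NFE2L2 and KEAP1, up to 3 called genes of each list and line with the largest difference (mean of at least 5 RPKM, both treated libraries outside both controls), and the 3 genes most like each member. SQSTM1, FTL and GCLM in lines outside this rule, and PRDX1, SRXN1, KCNAB2, AKR7A3, AKR1E2, AKR1B15 and AKR1D1, were named after their values were seen. Some genes under the rule are left unprinted. Alternatives were pseudocounts of 0.1 and 1, no filter or a mean of at least 5 RPKM, median ratio and quantile scaling, leaving out each library, a replicate block, and 1 fit over 20 libraries. Rescaling to gene reads and a crossed block were added after the data had been seen.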

Additional observations from a re-analysis of the deposited data

Results flagged for a closer look

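By RPKM, AKR1B1 lay on opposite sides of the controls in the lines that express it. In UO-31 both G007-LK libraries were above both DMSO libraries (log2 difference 0.11), and in OVCAR-4 both were below (-0.047). The difference between the lines was not tested. After rescaling to gene reads the libraries overlapped in UO-31, and in OVCAR-4 both G007-LK libraries were above both DMSO libraries (0.05). The opposite sides were therefore seen by RPKM only.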

How the results depend on the processing

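The log2 difference of the AKR1C sum kept its direction in ABC-1, UO-31 and OVCAR-4 under all alternatives tried for it. In ABC-1 it was 3.34 with a pseudocount of 0.1, 3.04 with 1, 3.31 by median ratio, 3.35 by quantile and 3.36 rescaled to gene reads, all further from 3.19 than the SD of the libraries. The 17 differences of single members had 170 values under alternatives, of which 144 stayed within the replicate SD, 26 moved and 18, in 8 of the differences, had the opposite sign. None of those 8 belongs to AKR1C3. The signs turned for AKR7A2 in ABC-1, UO-31, OVCAR-4 and RKO, AKR1A1 in OVCAR-4 and RKO, AKR1B1 in OVCAR-4 and AKR1B10 in UO-31.

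Counts of calls over all genes moved most. In COLO320DM, against 2178, they were 1343 without a filter, 4380 by median ratio, 4200 by quantile, 4414 by gene reads and 3363 in 1 fit over 20 libraries, and 479 to 3202 with a library left out. In UO-31, against 1591, they were 801, 3636, 3501, 3692 and 4166 in that order, and 53 to 7475 with a library left out (53 without DMSO replicate 2, 61 without DMSO replicate 1, 7475 and 6428 without G007-LK replicate 1 and 2). In RKO, against 432, they were 72, 277, 255, 261 and 11, with 704 for a mean of at least 5 RPKM and 118 to 140 with a library left out. In OVCAR-4, against 6405, 1 fit over 20 libraries gave 2924. In ABC-1, against 6314, leaving out a library gave 4043 to 6513. The cause was not tested.

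Of the list genes, COLO320DM had 25 calls, 42 by quantile, 38 by gene reads and 12 to 31 with a library left out. UO-31 had 20, 33 by median ratio, 34 by quantile, 35 by gene reads, 39 in 1 fit over 20 libraries and 5 to 53 with a library left out. ABC-1 had 47, and 30 to 49 with a library left out. OVCAR-4 had 42, 17 in 1 fit over 20 libraries and 25 to 39 with a library left out. RKO had 6, 3 without a filter, 2 in 1 fit over 20 libraries and 3 to 4 with a library left out. Where a library was left out, the lone library of its group was taken to vary like the pair of the other.

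The replicate numbers carry no stated pairing, and same-numbered libraries deviated together with r of -0.25 in COLO320DM and ABC-1, -0.02 in UO-31, 0.01 in OVCAR-4 and 0.06 in RKO. With a replicate block the calls were 763 (list genes 14) in COLO320DM and 150 in RKO, and within 1.5 times the other counts elsewhere. With crossed numbers, tried after seeing the data, the block gave 5203 calls (list genes 44) in COLO320DM and 7817 in ABC-1. Depth limits AKR1C1 and AKR1C2, with 2 to 30 reads per DMSO library in ABC-1, UO-31 and OVCAR-4, and AKR1B10, with 3 to 15 reads per library in COLO320DM, ABC-1 and RKO.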
